A study of Mus musculus with 9 samples.

Results

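The genes described here serve fatty acid uptake and mitochondrial fatty acid oxidation in cultured heart muscle cells. They were chosen by name, from their known function, but with earlier results of these data known. Each of the 33 symbols matched 1 row of the deposited count table of 55401 genes. Of these, 32 passed the filter on low counts and were tested, and Ucp3 did not. The members fall into 9 roles: uptake, activation and the carnitine shuttle, acyl-CoA dehydrogenases, the later steps of the β-oxidation spiral, enzymes for unsaturated chains, the electron transfer flavoprotein, the control by malonyl-CoA and pyruvate, acyl-CoA thioesterases, and uncoupling proteins.

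RNA-seq was performed on 9 libraries of primary neonatal mouse ventricular myocytes (NMVMs), with 3 libraries in each of 3 groups. All groups came from wild-type C57BL/6J pups 1 day old, and the isolated cells were grown in DMEM with 10% FBS. Control cultures stayed in normal oxygen and complete medium. Hypoxia cultures were washed, moved to DMEM lacking both glucose and serum, and kept for 6 h in a sealed chamber with an oxygen absorber (AnaeroPack). Hypoxia + rSRGN cultures were treated in the same way with recombinant serglycin (rSRGN), a secreted proteoglycan core protein, in the medium; its dose is not given in the sources used here. Low oxygen and the loss of glucose and serum therefore cannot be told apart in any comparison with control. The labels do not say whether the 3 libraries of a group came from separate litters or cultures, so the p-values measure only the spread between these libraries, which may be technical.

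Total counts were 21669017 to 22781557 in control, 16583985 to 18148474 in hypoxia and 16640239 to 20826701 in hypoxia + rSRGN. Levels are given as CPM, the counts scaled to a common library size with TMM factors. Cardiomyocyte markers were abundant in control, where the 12 genes of the list summed to 41280 to 51230 CPM, but the cultures also held fibroblast RNA, with 12 fibroblast markers at 11410 to 13460 CPM. A gene was called when edgeR's quasi-likelihood test gave an adjusted p below 0.05 over all 16762 genes tested and the fold change was at least 1.5; in hypoxia against control 25.1% of all genes were called lower and 26.4% higher, and in hypoxia + rSRGN against hypoxia 2.27% higher and 0.859% lower. Under hypoxia all 12 cardiomyocyte markers were called lower, with a median log2 fold change of -3.70, and their sum was 3598 to 5553 CPM. With rSRGN that sum was 7132 to 7584 CPM, and all 12 lay above hypoxia in every library, of which 11 were called higher, or 7 without hypoxia replicate 3. The fibroblast sum was 22320 to 25060 CPM in hypoxia and 25190 to 26210 CPM with rSRGN. Endothelial markers summed to 118 to 151.7 CPM in control, 113.1 to 131.6 CPM in hypoxia and 124.4 to 149.5 CPM with rSRGN. Although that sum changed little, 6 of the 10 were called lower in hypoxia and 0 higher, and their median log2 fold change was -0.77. The most abundant, Flt1, was at 39.3 ± 1.34 CPM in control and 55.4 ± 1.22 CPM in hypoxia. Macrophage markers summed to 236 to 253.1 CPM in control, 26 to 28.03 CPM in hypoxia and 29.95 to 35.45 CPM with rSRGN, and C1qa had 0, 0 and 1 counts in the hypoxia libraries. These shifts moved with the comparisons described here, and their part in the results was not tested. In bulk samples, fewer cells of a type and less RNA per cell cannot be told apart.

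Long-chain fatty acids are released from lipoproteins by lipoprotein lipase, enter the cell with the help of CD36 and fatty acid transport proteins, and are carried by fatty acid binding proteins. They are activated to acyl-CoA, passed into the mitochondrion as carnitine esters, and shortened in repeated rounds of dehydrogenation, hydration, a further dehydrogenation and thiolysis. The electrons pass through the electron transfer flavoprotein to the respiratory chain, so that the pathway needs oxygen. It is the main fuel route of the adult heart, and its genes rise after birth under nuclear receptors of the PPAR and ERR families and their PGC-1 coactivators.

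Because those receptors bind DNA through the core hexamer AGGTCA, the RefSeq promoters (GRCm38.p6, 250 bases before to 50 after the start) were searched for it on both strands. An entry was found for 27 of the 33 members; Lpl, Cpt1b, Crat, Acaa2, Decr1 and Acot13 had none. The hexamer was present in 7 of the 27 (25.9%), against 18.1% of all 27025 promoters: those of Cd36, Cpt1a, Acadvl, Acadm, Echs1, Acacb and Ucp3. The longer form AAGGTCA, which also contains the hexamer, was found in Acadm and Acacb (7.41%, against 5.38% of all promoters). The form with TCA directly before the hexamer, which contains both shorter forms, and the direct repeat of the hexamer with 1 base between the copies were found in no member, against 0.466% and 0.0481% of all promoters. These are exact matches of letters and not measured binding. The form with TCA and the direct repeat are rare over all promoters, so 0 in 27 members says little about such sites.

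Stretches around the match, all before the RefSeq start, are shown for 4 members. Cd36, Acadm and Acadvl fell to under 25% of control in hypoxia, and Cpt1a fell least among the called genes. Each stretch is written 5′ to 3′ on the strand of its gene, with the hexamer or its reverse complement in capitals. The Cd36 stretch is at chr5:17836083-17836146 (minus strand), the Acadm stretch at chr3:153944851-153944893 (minus), the Acadvl stretch at chr11:70015474-70015551 (minus) and the Cpt1a stretch at chr19:3323171-3323248 (plus). The Cd36 and Cpt1a stretches lie inside the genes as counted, which begin at 17888801 and 3322334. Whether the RefSeq starts beside these stretches were used in these cells was not tested.
Cd36: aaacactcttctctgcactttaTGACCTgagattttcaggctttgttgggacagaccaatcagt
Acadm: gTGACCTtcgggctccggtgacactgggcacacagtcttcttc
Acadvl: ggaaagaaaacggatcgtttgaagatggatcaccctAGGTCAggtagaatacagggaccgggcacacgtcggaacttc
Cpt1a: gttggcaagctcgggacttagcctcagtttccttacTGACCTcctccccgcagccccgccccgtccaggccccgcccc

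Hypoxia against control asked how the cells' transcripts changed under low oxygen without glucose and serum. In hypoxia, 31 of the 32 tested members were called lower and 0 higher. DESeq2, and edgeR with an unadjusted p below 0.05 and the same fold limit, likewise gave 0 members higher. Over all genes tested, 25.1% were called lower and 26.4% higher. The members' log2 fold changes ran from -4.24 to 0.50 with a median of -1.48, beside a median of 0.05 over all genes. Ucp2 was the one tested member that was not called. In each of the 31 the control libraries all lay above the hypoxia libraries; over all genes tested, the hypoxia libraries all lay below control in 35.3% and all above in 37.7%. As a share of all counts, the 33 members took 0.542% ± 0.00561 (SD, n = 3) in control, 0.179% ± 0.00518 in hypoxia and 0.198% ± 0.00498 with rSRGN. Their summed level was 0.119 ± 0.0127 of that of the 12 cardiomyocyte markers in control, 0.383 ± 0.0795 in hypoxia and 0.271 ± 0.00943 with rSRGN.

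**Figure D1:**
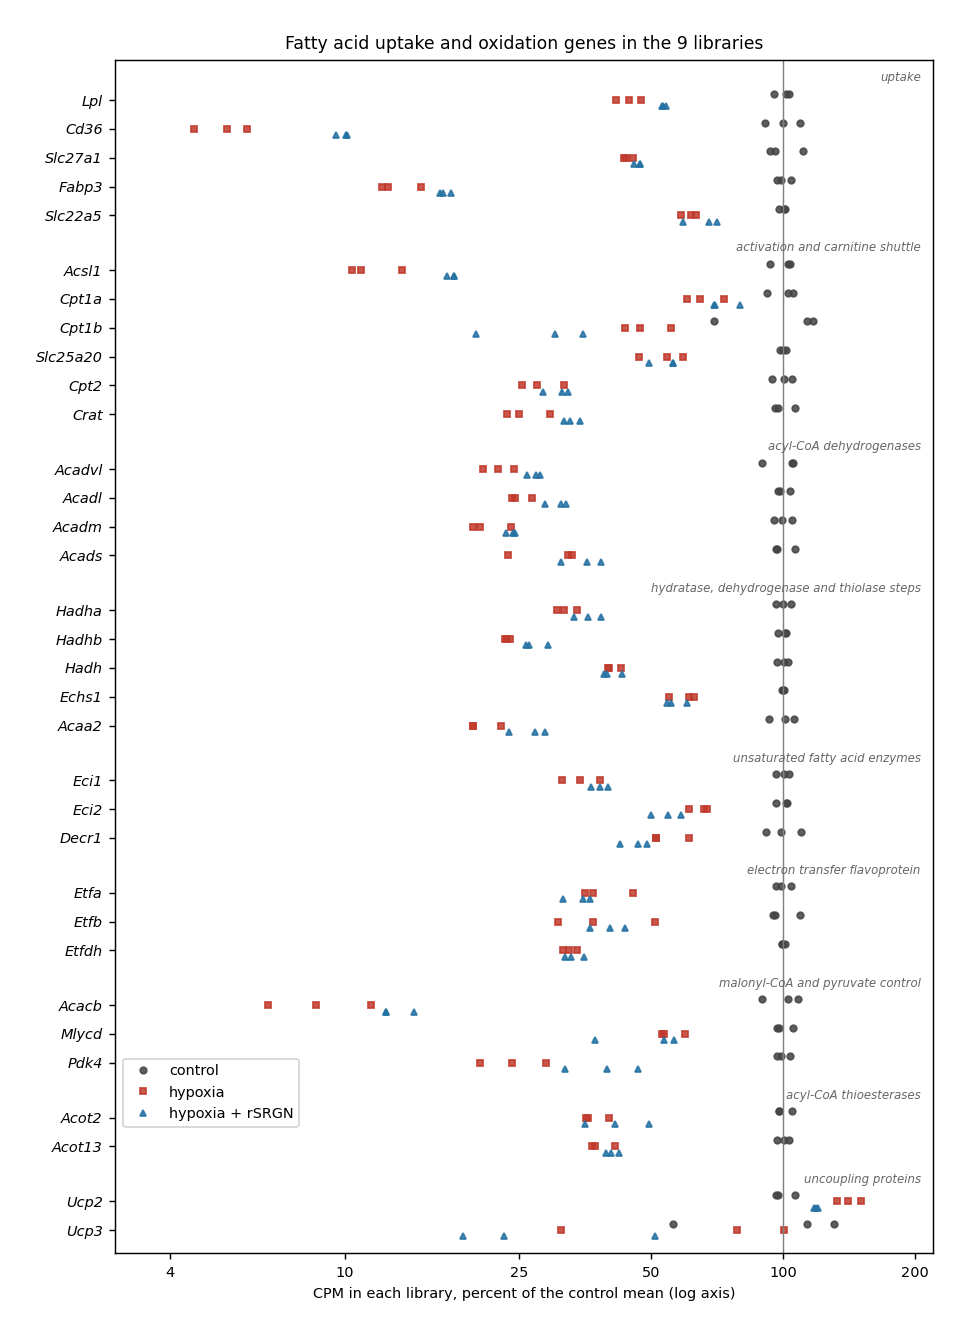
Level of each of the 33 genes in each library (CPM), as a percent of the gene's control mean on a log axis, grouped by role; circles are control, squares hypoxia and triangles hypoxia + rSRGN, 3 libraries each. For 31 genes every hypoxia library lies left of every control library, Ucp2 lies to the right, and Ucp3 overlaps.

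The size of the fall differed widely between members. Of the 31 that fell, 2 kept less than 10% of their control level in hypoxia (Cd36 and Acacb), 7 kept between 10 and 25%, 15 between 25 and 50%, and 7 between 50 and 75%. Thus the transcripts at opposite ends of the list, Cd36 and Cpt1a, kept 5.31% and 66.0% of control.

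The 5 uptake genes all fell. Cd36, the membrane protein that takes up long-chain fatty acids (ENSMUSG00000002944.15; minus strand of chromosome 5, 17781690 to 17888801, GRCm38), was at 199, 166 and 182.5 CPM in control and 9.83, 10.9 and 8.28 CPM in hypoxia. The groups were far apart, and this was the largest fall of any member: its log2 fold change was -4.24 ± 0.10 (SE; adjusted p = 6.53e-19), rank 174 from the lowest of the 16762 genes. Fabp3, the fatty acid binding protein of heart muscle, was at 381, 388 and 409 CPM in control and 58.6, 49.2 and 47.8 CPM in hypoxia. It had the highest level per length of all members in control, and it fell by 2.92 ± 0.08 on the log2 scale (adjusted p = 7e-18). Lpl, the lipase that frees fatty acids from circulating lipoproteins, was at 973, 902 and 956 CPM in control and 448, 392.5 and 419 CPM in hypoxia, a log2 fold change of -1.17 ± 0.07. The ranges of the groups were well apart. Slc27a1, a fatty acid transport protein, changed by -1.17 ± 0.09, and Slc22a5, the carnitine carrier of the plasma membrane, by -0.71 ± 0.13. Hence within the uptake group the intracellular carrier and the CD36 receptor fell more than the lipase and the transporters, with 13.2% and 5.31% of control left against 44.3 to 61.1%.

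Activation and the carnitine shuttle held 6 members, and all fell. Acsl1, the main long-chain acyl-CoA synthetase of heart, was at 267, 265.5 and 241.5 CPM in control and 28.2, 34.9 and 26.8 CPM in hypoxia. No hypoxia library came near the control range, and the log2 fold change was -3.11 ± 0.09 (adjusted p = 1.07e-17). Crat, carnitine acetyltransferase, changed by -1.95 ± 0.08 and Cpt2, the inner-membrane carnitine palmitoyltransferase, by -1.82 ± 0.10. Slc25a20, which exchanges acylcarnitine for carnitine across the inner membrane, fell less, at -0.90 ± 0.09.

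The outer-membrane carnitine palmitoyltransferases, which control entry into the pathway, were both called lower. Cpt1a, the liver-type and fetal heart enzyme, was at 86.8, 89.3 and 77.7 CPM in control and 54.7, 61.9 and 51.0 CPM in hypoxia, so that the ranges were separate but close. Its log2 fold change of -0.60 ± 0.09 (adjusted p = 2.25e-06) lay just past the limit of 1.5-fold, and it was not called without control replicate 2 (-0.58), without hypoxia replicate 1 (-0.58) or without hypoxia replicate 3 (-0.54). Cpt1b, the muscle-type enzyme, had only 37, 60 and 58 counts in control, 21, 23 and 18 in hypoxia and 14, 15 and 9 with rSRGN. It was called lower in hypoxia (-1.03 ± 0.35, adjusted p = 0.0113), but not without control replicate 3 (-0.91).

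**Figure D2:**
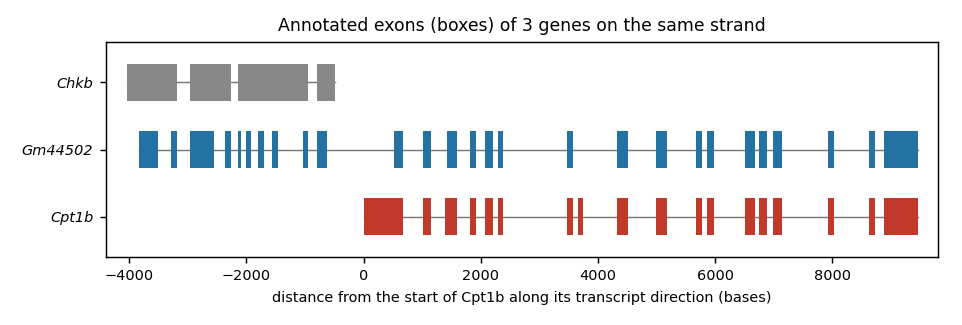
Annotated exons (boxes) of Cpt1b, Gm44502 and Chkb, all on the same strand, by distance in bases from the start of Cpt1b in its direction of transcription. Gm44502 repeats most exons of Cpt1b, 81.4% of its exon length, and also covers exons of Chkb.

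The low count of Cpt1b must be read against the annotation. Gm44502, a gene model that joins exons of the neighbouring Chkb to those of Cpt1b, shares 2744 of the 3372 exon bases of Cpt1b (81.4%) on the same strand. featureCounts leaves out, by default, fragments that could belong to more than one gene, and Gm44502 itself had 0 counts in all 9 libraries. The level of Cpt1b is therefore uncertain, and its 0.709 CPM per kb in control cannot be set against the 11.1 of Cpt1a. Etfb shares 58.2% of its exon length in the same way, mainly with Etfbl, and 42.9% of the exons of Acadvl overlap Dvl2 on the opposite strand. Without these 3 genes, 28 of 29 members were lower in hypoxia. Fabp3 shared 19.6% with genes of the opposite strand and every other member less than 10%. In addition, the pseudogene Hadhb-ps held 6194 counts over the 9 libraries, so the counts of Hadhb may be split.

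The 4 acyl-CoA dehydrogenases, which begin each round of β-oxidation, fell to a similar extent, with log2 fold changes between -2.23 and -1.75. Acadm, for medium chains, was at 351, 338 and 371 CPM in control and 71.7, 84.7 and 69.4 CPM in hypoxia. This was a log2 fold change of -2.23 ± 0.08 (adjusted p = 2.33e-16), with 21.3% of control left. Acadvl, for very long chains, changed by -2.15 ± 0.08, Acadl, for long chains, by -2.00 ± 0.07, and Acads, for short chains, by -1.75 ± 0.11. The 4 genes together summed to 1011 to 1080 CPM in control and 238.9 to 255.1 CPM in hypoxia.

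The later steps showed more spread between members. Acaa2, a mitochondrial thiolase, was at 194.5, 211 and 222 CPM in control and 47.7, 41.1 and 41.1 CPM in hypoxia. Its 3 hypoxia libraries lay close together, and it fell by 2.27 ± 0.09 on the log2 scale (adjusted p = 7.27e-16). The subunits of the trifunctional protein, which carries out the last 3 steps on long chains, were Hadha, at -1.64 ± 0.07, and Hadhb, at -2.09 ± 0.07. Hadh, the dehydrogenase for short and medium chains, fell by 1.29 ± 0.07. Echs1, the short-chain hydratase, was at 157.1 to 159.1 CPM in control and 86.7 to 99.2 CPM in hypoxia, and its log2 fold change was only -0.75 ± 0.07.

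The 3 enzymes that prepare unsaturated chains fell to different extents. Eci1, an enoyl-CoA isomerase of the mitochondrion, changed by -1.53 ± 0.09, Decr1, the dienoyl-CoA reductase, by -0.88 ± 0.09, and Eci2, a second isomerase, by -0.63 ± 0.08 (adjusted p = 8.05e-07). The electron transfer flavoprotein and its dehydrogenase, which pass electrons to ubiquinone, fell together: Etfa by 1.35 ± 0.09, Etfb by 1.33 ± 0.22 and Etfdh by 1.62 ± 0.07. Etfb rested on few counts, 126 to 155 per control library and 34 to 61 per hypoxia library.

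Of the genes that control the choice of fuel, Acacb and Pdk4 fell strongly and Mlycd less. Acacb, the acetyl-CoA carboxylase whose malonyl-CoA holds back carnitine palmitoyltransferase, was at 146, 176 and 167 CPM in control and 18.7, 13.98 and 10.9 CPM in hypoxia. The ranges were far apart, and the log2 fold change was -3.48 ± 0.13 (adjusted p = 3.97e-16). Mlycd, which breaks malonyl-CoA down, fell by 0.85 ± 0.13, leaving 55.4% of control. Pdk4, the kinase that turns off pyruvate dehydrogenase and so spares glucose, was at 48.0, 45.8 and 44.8 CPM in control and 13.3, 11.2 and 9.38 CPM in hypoxia, a log2 fold change of -2.03 ± 0.13. The acyl-CoA thioesterases Acot2 and Acot13, which release fatty acid from its CoA ester, changed by -1.43 ± 0.13 and -1.38 ± 0.09.

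Of the uncoupling proteins, 1 could be tested, and it was not lower. Ucp2, a carrier of the inner membrane, was at 23.9, 23.6 and 26.1 CPM in control and 34.4, 36.9 and 32.5 CPM in hypoxia. All hypoxia libraries lay above all control libraries, but the log2 fold change of 0.50 ± 0.09 (adjusted p = 6e-05) was below the limit of 1.5-fold. Ucp3, the muscle form, had 15, 13 and 6 counts in control, 3, 9 and 7 in hypoxia and 2, 2 and 5 with rSRGN, too few to be tested at this depth. Its mean was 70.1% of control in hypoxia and 30.9% with rSRGN.

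**Figure D3:**
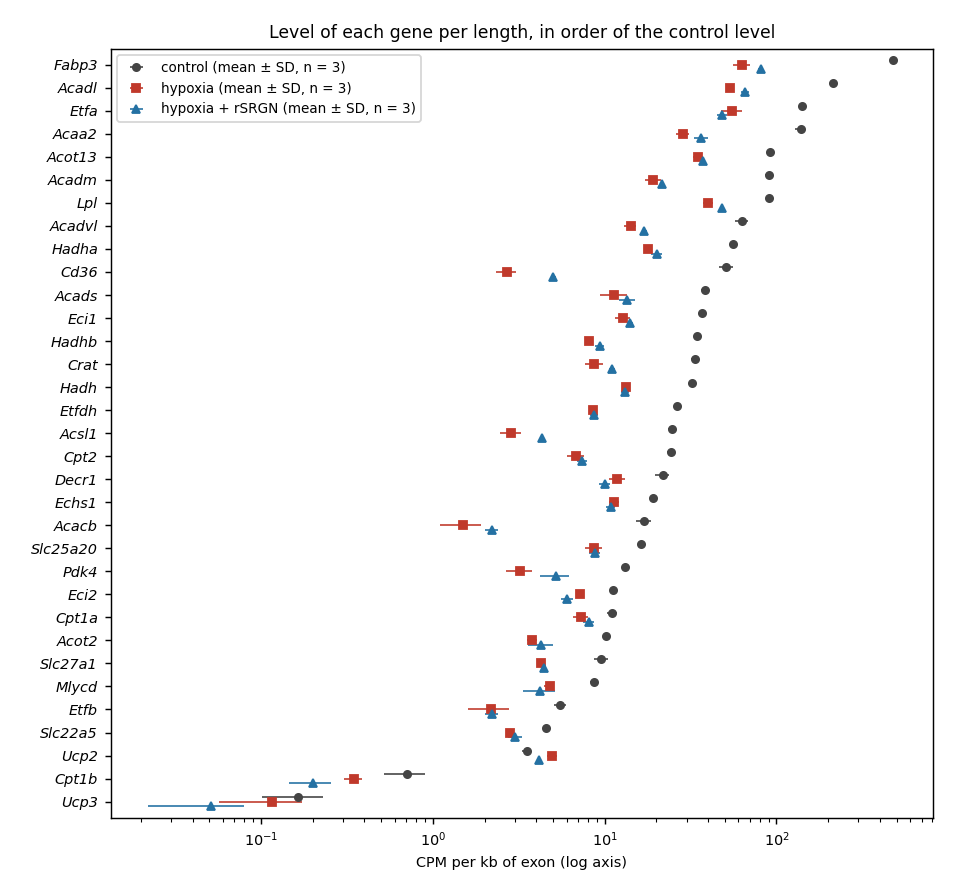
Level of each gene in CPM per kb of exon (log axis; mean ± SD, 3 libraries per group), ordered by the control level. Fabp3 leads at 477 in control, and the distance between control and hypoxia is widest for Cd36 and Acacb. The places of Cpt1b, Etfb and Acadvl are uncertain because they share exons with other genes.

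Levels between genes were compared per kb of exon. The length used is that of all annotated exons of a gene, 744 bases for Acot13 and 6989 for Ucp2. The order between genes therefore depends on the annotation. In control the order was led by Fabp3 at 477 ± 17.5 CPM per kb (SD, n = 3), followed by Acadl at 214.5 ± 7.19, Etfa at 140.8 ± 5.69 and Acaa2 at 138 ± 9.08. Etfa and Acaa2 differed by less than their SD, as did Acot13 (91.3 ± 2.87), Acadm (90.2 ± 4.30) and Lpl (90.1 ± 3.53). Cd36, at rank 10 in control with 50.8 ± 4.66, stood at 2.70 ± 0.37 in hypoxia, where Fabp3 still led at 63.0 ± 7.14. At the low end by this measure were Ucp2 (3.51 ± 0.20) and Ucp3 (0.165 ± 0.0642). Cpt1b is drawn in the figure but left out of this text because of its shared exons. The places of Etfb and Acadvl, which also share exons, are uncertain too.

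Hypoxia + rSRGN against hypoxia asked what the added protein changed in cultures that otherwise had, by their labels, the same treatment. Of the 32 tested members, 3 were called higher and 0 lower, which is 9.38% higher. The count of members lower was also 0 with DESeq2 and with an unadjusted p below 0.05. Over all genes tested, 2.27% were called higher and 0.859% lower. The members called were Cd36, Acsl1 and Pdk4. The median log2 fold change of the members was 0.14, beside -0.03 over all genes, and 24 were above 0 and 8 below. In 12 members the rSRGN libraries all lay above the hypoxia libraries, and in 4 they all lay below (Cpt1b, Eci2, Decr1 and Ucp2, none of them called). Over all genes tested, 16.5% lay entirely above and 15.5% entirely below.

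Cd36 was at 18.4, 18.5 and 17.4 CPM with rSRGN, against 8.28 to 10.9 CPM in hypoxia. The groups did not overlap, and the log2 fold change was 0.90 ± 0.11 (adjusted p = 3.9e-05). Even so, the level with rSRGN was 9.91% of control, and every rSRGN library lay far under the control range of 166 to 199 CPM. Pdk4 was at 18.4, 21.6 and 14.7 CPM with rSRGN, against 9.38 to 13.3 CPM in hypoxia. It rose by 0.69 ± 0.14 on the log2 scale (adjusted p = 0.00169), to 39.4% of control. Acsl1 was at 44.2, 45.7 and 45.8 CPM with rSRGN, against 26.8 to 34.9 CPM in hypoxia, and rose by 0.60 ± 0.09 (adjusted p = 0.000213), which is 1.51-fold. Its 3 rSRGN libraries were nearly equal and lay at 17.5% of control on average.

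These calls rested in part on single libraries. Without hypoxia replicate 3, only Cd36 was called: Acsl1 then changed by 0.52 and Pdk4 by 0.57, below the limit of 1.5-fold. That library also had the lowest summed level of cardiomyocyte markers, 3598 CPM. Acsl1 was not called without hypoxia replicate 1 (0.55) either, nor Pdk4 without hypoxia + rSRGN replicate 2 (0.55). Acacb, at 20.2, 20.2 and 23.4 CPM with rSRGN against 10.9 to 18.7 CPM in hypoxia, changed by 0.55 ± 0.13 (adjusted p = 0.00816), just under the limit, and was called without hypoxia replicate 1 (0.77) or without hypoxia + rSRGN replicate 2 (0.59).

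With no limit on the fold change, 10 members had an adjusted p below 0.05 and were higher with rSRGN (31.2%), and 0 were lower. Over all genes tested, 10.5% were higher and 6.11% lower by that rule. Besides Cd36, Acsl1, Pdk4 and Acacb these were Fabp3 (0.36 ± 0.08), Acaa2 (0.36 ± 0.09), Crat (0.34 ± 0.08), Acadl (0.29 ± 0.07), Acadvl (0.27 ± 0.09) and Lpl (0.26 ± 0.07). For Fabp3 the rSRGN libraries were at 68.8, 64.9 and 66.0 CPM, above the 47.8 to 58.6 CPM of hypoxia and far below control. The 11 cardiomyocyte markers that were called higher with rSRGN moved with these genes, with a median log2 fold change of 0.79 over the list of 12, and their part in the result was not tested.

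The remaining members gave no call. Cpt1b had the lowest value of all members, -0.78 ± 0.40 (adjusted p = 0.194). Etfa (-0.20 ± 0.09), Eci2 (-0.25 ± 0.09), Decr1 (-0.24 ± 0.09), Mlycd (-0.17 ± 0.13) and Ucp2 (-0.25 ± 0.09) had values below 0. Etfdh (0.03 ± 0.07), Slc25a20 (0.01 ± 0.09), Etfb (0.02 ± 0.24) and Hadh (-0.01 ± 0.07) lay within 1 SE of 0. So did Echs1 (-0.07 ± 0.07), Slc27a1 (0.07 ± 0.09), Acot13 (0.08 ± 0.09) and Slc22a5 (0.11 ± 0.13). Cpt1a (0.15 ± 0.09), Hadha (0.17 ± 0.07), Hadhb (0.21 ± 0.07) and Acadm (0.17 ± 0.08) had values above 0 that did not pass the adjusted threshold. The same held for Cpt2 (0.12 ± 0.11), Acads (0.24 ± 0.11), Eci1 (0.14 ± 0.09) and Acot2 (0.17 ± 0.14).

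**Figure D4:**
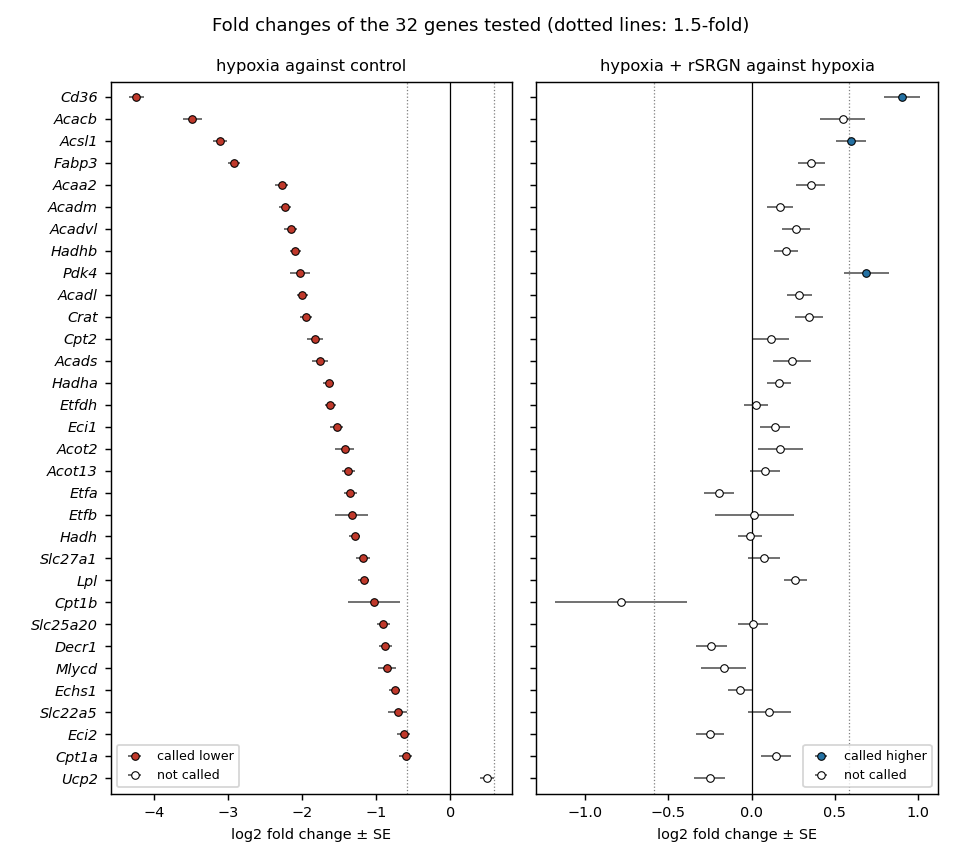
Log2 fold change ± SE of the 32 tested genes, ordered by the change in hypoxia against control (left) and with the same order for hypoxia + rSRGN against hypoxia (right); filled points are called and dotted lines mark 1.5-fold. On the left 31 genes are called lower; on the right Cd36, Acsl1 and Pdk4 are called higher.

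Hypoxia + rSRGN against control compared the rSRGN cultures with the untreated state. Of the 32 tested members, 30 were called lower and 0 higher, where 24.7% of all genes were called lower and 24.1% higher. DESeq2 and the unadjusted p also gave 0 members higher here. The median log2 fold change of the members was -1.43. This comparison shares its control libraries with hypoxia against control, and the values are therefore given side by side. Cd36 was at 5.31% of control in hypoxia and 9.91% with rSRGN, Acacb at 8.91% and 13.1%, Fabp3 at 13.2% and 17%, and Lpl at 44.5% and 53.4%. In the other direction, Eci2 was at 64.7% and 54.4%, Decr1 at 54.5% and 46.1%, and Etfa at 39.2% and 34.3%. The members not called were Cpt1a (-0.45 ± 0.09) and Ucp2 (0.25 ± 0.09). Slc22a5 (-0.60 ± 0.12) lost its call without hypoxia + rSRGN replicate 2 (-0.53).

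Genes around the pathway, from 5 further lists, changed in both directions in hypoxia: 46 of 103 tested genes were called lower and 9 higher, where 25.1% of all genes were lower and 26.4% higher. Of 13 other uptake and activation genes, 2 were lower (15.4%) and 5 higher (38.5%), with a median log2 fold change of -0.21. With the filter lowered to 1 count over the 9 libraries, which admits 15 genes of this list, 4 were lower and 3 higher, and with no fold limit 5 were lower; without hypoxia replicate 2, 3 were higher. Got2, a mitochondrial aminotransferase also found at the plasma membrane as a fatty acid binding protein, fell from 453.5 ± 12.4 to 156.3 ± 7.65 CPM (-1.54 ± 0.07). Fabp5, another fatty acid binding protein, rose from 82.7 ± 5.28 to 209 ± 1.56 CPM (1.34 ± 0.07), opposite to Fabp3. The other genes of these counts, named after their values were seen, were Vldlr (lower) and Slc27a3, Acsl3, Acsl5 and Cav1 (higher); Acsl3 was not called without hypoxia replicate 2 or with the filter lowered to 1 count over the 9 libraries (0.577). Cav1 was not called without that library or control replicate 2, nor with that filter (0.565) or DESeq2 (0.583).

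Of 25 genes on the list of other mitochondrial oxidation genes, 11 were lower and 2 higher, with a median of -0.47. Acss1, which activates acetate in the mitochondrion, fell from 46.9 ± 2.11 to 4.70 ± 0.86 CPM (-3.31 ± 0.13). Cpt1c, the brain member of the carnitine palmitoyltransferase 1 family, rose from 20.3 ± 1.69 to 54.5 ± 4.60 CPM (1.42 ± 0.10), unlike Cpt1a and Cpt1b. The second gene that rose was Acot7. Whether Cpt1c and Acot7 serve mitochondrial oxidation in these cells was not tested. Of 21 peroxisomal genes, 10 were lower and 0 higher (median -0.58), led by Phyh, the phytanoyl-CoA hydroxylase, at -2.24 ± 0.09. Of 21 genes of triglyceride storage and lipolysis, 13 were lower and 0 higher (median -0.85), led by Cidea, a lipid droplet protein, at -3.65 ± 0.25. The count of 0 higher in this last list became 2 without hypoxia replicate 2, 1 without control replicate 3, 2 with library size alone and 4 with no fold limit, and that of the peroxisomal list 2 with no fold limit.

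Of 23 PPAR and PGC-1 regulators, 10 were lower and 2 higher, with a median of -0.42; with library size alone, or with no fold limit, 4 were higher. Esrrb, an estrogen-related receptor, had 165, 217 and 173 counts in control, 4, 0 and 4 in hypoxia and 15, 8 and 13 with rSRGN. It was called lower in hypoxia, but passed the low-count filter through its control libraries alone, and with hypoxia counts this near 0 no fold is given. Sirt1, a deacetylase of PGC-1α, rose from 21.3 ± 1.79 to 42.9 ± 6.29 CPM, and the second gene that rose, Ppard, was not called without control replicate 1, without hypoxia replicate 2, with DESeq2 (0.585) or with the filter lowered to 1 count over the 9 libraries (0.566). The receptor Ppara and the coactivator Ppargc1a, named after their values were seen, were also called lower: Ppara fell by 3.78 ± 0.20 on the log2 scale, and the mean level of Ppargc1a was 108.9 CPM in control and 10.3 CPM in hypoxia.

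With rSRGN, 5 of these regulators were called higher than in hypoxia and 0 lower, while the other 4 lists held 0 called higher and 1 called lower. Over all genes tested, 2.27% were called higher and 0.859% lower, so that 0 is close to the background. In these 4 lists, 1 mitochondrial gene was called lower without hypoxia replicate 1, without hypoxia replicate 2 or without hypoxia + rSRGN replicate 3, and 1 triglyceride gene higher without hypoxia replicate 1 or with an unadjusted p. The 5, of which only Esrrb was named by the rule, were Prkaa2, a catalytic subunit of AMP-activated kinase (0.70 ± 0.12, adjusted p = 0.000388), Ppargc1a (0.67 ± 0.13, adjusted p = 0.00117), Ppargc1b (0.60 ± 0.19), the receptor Esrrg (0.60 ± 0.19) and Esrrb, whose counts in both groups were too low for a firm statement. Prkaa2 rose from 16.02 ± 3.90 to 26.2 ± 1.00 CPM and Ppargc1a from 10.3 ± 2.14 to 16.5 ± 1.89 CPM, while the libraries of Esrrg overlapped between the groups. None of the 5 calls held in every fit with 1 library left out: 1 gene of the 5 lists (Esrrb) was called higher without hypoxia replicate 3, 3 without hypoxia replicate 2 or without hypoxia + rSRGN replicate 2, and 2 without hypoxia + rSRGN replicate 1. Ppargc1b and Esrrg were also not called with library size alone or when only the groups compared were fitted, and Esrrb was not tested in the latter fit, nor with the filter of 10 counts in every library. The gene that was lower was G0s2, an inhibitor of adipose triglyceride lipase, which fell from 17.2 ± 1.85 to 9.91 ± 0.90 CPM (-0.80 ± 0.12, adjusted p = 0.000215).

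**Figure D5:**
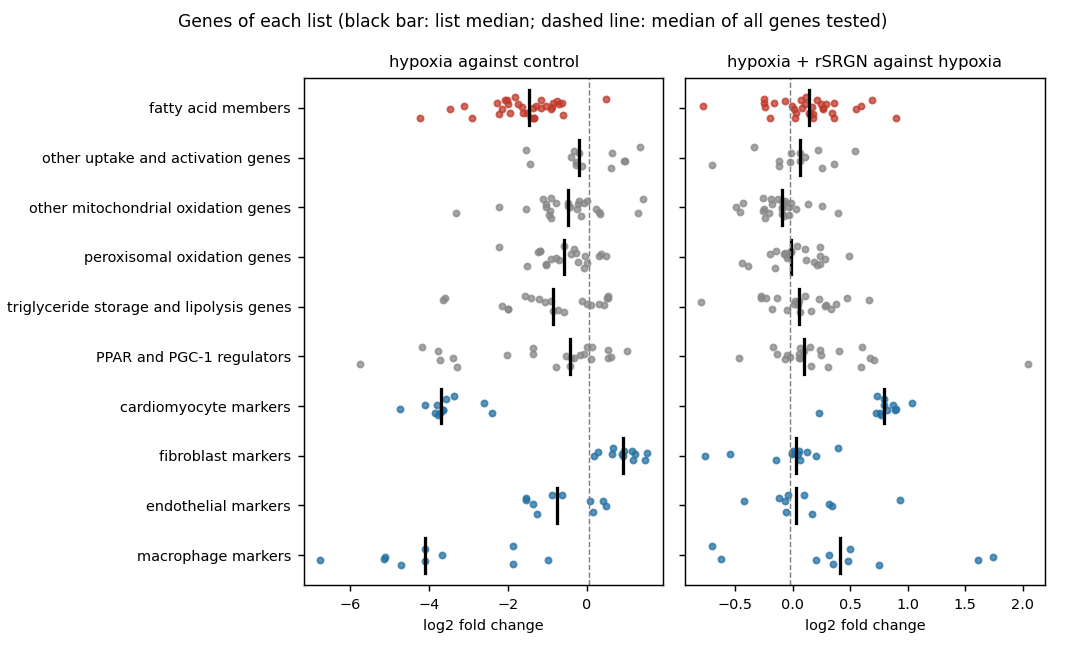
Log2 fold change of each tested gene of the fatty acid members, of 5 lists around the pathway and of 4 lists of cell type markers, for hypoxia against control (left) and hypoxia + rSRGN against hypoxia (right); black bars are list medians and the dashed line is the median of all genes tested. On the left the members' median is -1.48, between those of the other pathway lists and the -3.70 of the cardiomyocyte markers.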

How the data were processed

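The authors deposited whole-number counts of fragments per gene, not normalized. Per the file headers, they were made with featureCounts 2.0.1 on exons of GENCODE release M25 (GRCm38, mm10), in paired mode and with no strand option, so genes that overlap on opposite strands cannot be separated; the submitters' processing notes name HISAT2 as a tool, with no version. All 9 columns of counts were used and 0 were left unused. Groups were taken from the sample labels.

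The tests were run with edgeR 4.0.16 under R 4.3.3 (filterByExpr, TMM, quasi-likelihood test, 1 fit of the 9 libraries with a mean per group) and adjusted by Benjamini-Hochberg over the 16762 genes tested. Calls needed both a change of 1.5-fold or more and an adjusted p under 0.05. SE is the log2 fold change divided by the root of the F statistic. The procedure was tested on simulated data. Replicates differed by more than sampling noise, with a chi-square per degree of freedom of 3.81 to 14.6. DESeq2 1.42.0, other scalings, filters, thresholds, the replicate number as a block and fits leaving out each library were alternatives.

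The members and lists were chosen with earlier results of these data known. All 33 members are named; of each other pathway list, the genes with the largest called rise and fall in hypoxia against control and in hypoxia + rSRGN against hypoxia, with a mean of at least 1 CPM, are named. Promoter sequences are from RefSeq (GRCm38.p6). Plots were made with matplotlib 3.10.9.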

Additional observations from a re-analysis of the deposited data

How the results depend on the processing

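In hypoxia against control, the members called lower numbered 30 to 31 with each library left out and their median log2 fold change ran from -1.53 to -1.39. With library size alone as the scaling, Cpt1a (-0.53) and Eci2 (-0.56) fell below 1.5-fold. With no fold limit, 1 member (Ucp2) was higher than control in hypoxia and 1 with rSRGN. The members higher in hypoxia + rSRGN against hypoxia numbered 10 with no fold limit and 1 to 3 with each library left out; Acsl1 was not called with library size alone (0.58). The median for hypoxia + rSRGN against control was -1.53 to -1.42 with each library left out, -1.53 being the value without hypoxia + rSRGN replicate 3, and Slc22a5 was not called there with library size alone (-0.56). Of the genes of the 5 other pathway lists, 18 were called higher in hypoxia against control with no fold limit. For hypoxia + rSRGN against hypoxia these lists gave 15 higher and 4 lower with no fold limit, 3 higher with library size alone, 2 higher when only the groups compared were fitted, and 1 to 6 higher and 1 to 2 lower with each library left out. No other alternative run moved a count of called members by over 1.5 times.

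Values near 0 in hypoxia + rSRGN against hypoxia changed sign: Hadh was 0.018 with RLE scaling, 0.021 with DESeq2, 0.0015 and 0.0025 with the filters of at least 1 count in all and 10 counts in every library, 0.0054 with only the groups compared, and -0.051 to 0.022 with each library left out. Slc25a20 was -0.013 and Etfb -0.0056 with library size alone, and with each library left out Slc25a20 ran from -0.073 to 0.091, Etfb from -0.13 to 0.25 and Etfdh from -0.012 to 0.061. The cause of these changes was not tested. With the replicate number as a replicate block the members gave 31 lower, 3 higher and 30 lower in the 3 comparisons, and the call of Ppargc1b with rSRGN was lost (0.58). Deviations of same-numbered libraries, over all genes tested, correlated at -0.037 to 0.021. No strong shared deviation was seen, but these values cannot show whether the numbers pair the libraries. When a library is left out, its group keeps 2, and Ucp3 can then pass the filter, which makes 33 members tested. The 9 libraries limit what small changes can be called.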
